A study of Homo sapiens with 12 samples.

Results

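The mRNAs of 40 translation factor genes were followed in U2OS cells, a human osteosarcoma line, across 12 poly(A)-selected RNA-seq libraries. The 40 genes were taken by name and comprised 5 elongation factors (EEF), 12 subunits of the EIF3 complex, 21 other initiation factors (EIF) and 2 cytoplasmic poly(A)-binding proteins (PABPC1 and PABPC4), out of 22379 gene rows in the table. All 40 were among the 13811 genes tested. The cells were pools that had been transiently transfected with a px330-puro plasmid carrying Cas9 and a guide RNA and then selected with puromycin, and each pool holds a mixture of edits rather than 1 clone. The guide was nontargeting (NONT, labelled WT), or aimed at NUP93, a nuclear pore protein (NUP93-KO), or at EXOSC5, a subunit of the RNA exosome (EXOSC5-KO). Each of these 3 genotypes was given DMSO (called untreated here, as in the sample titles) or 1 μM triptolide for 8 h, with 2 replicates in each of 6 groups. Values given 3 in a row are in the order NONT, NUP93-KO, EXOSC5-KO, and errors after ± are standard errors of the limma fit. Triptolide inhibits the XPB helicase and with it the start of RNA polymerase II transcription, so that existing mRNA decays without being replaced. By the study's methods the knockout pools were selected and expanded for fewer days than the NONT pool, and this handling cannot be told apart from genotype.

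Translation initiation brings a ribosome to the start codon. EIF4E binds the mRNA cap, EIF4G1 bridges it to the helicase EIF4A and to EIF3 on the small ribosomal subunit, EIF2 carries the initiator tRNA, and EIF1 and EIF5 act when the start codon is recognised. Elongation factors then deliver aminoacyl-tRNAs (EEF1A1, recharged with GTP by EEF1B2, EEF1D and EEF1G) and move the ribosome along the mRNA (EEF2). The mRNAs of elongation factors, ribosomal proteins, PABPC1 and several EIF3 subunits are known as TOP mRNAs: they begin with a C followed by an unbroken run of pyrimidines, through which their translation follows growth signals.

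The values are spike-in-normalised, so that they follow the amount of mRNA per counted cell, and the approximate depth was 8603000 to 11964000 reads per library. The replicates of a group did not agree equally well in scale. Over all genes, replicate 1 minus replicate 2 had a median log2 difference of −0.51 in untreated NONT, and this lay between −0.14 and 0.25 in the other groups. Labels do not say whether replicates came from separate cultures, so p-values measure the spread between these libraries, which may be technical. The bulk libraries cannot tell apart a partial loss in every cell from a full loss in some cells. COL1A1, SPARC and VIM were high in every library and RUNX2 and ALPL were present, while the osteoblast markers SP7 and IBSP were at 0 throughout, COL1A2 was at most 42.0 and BGLAP at most 5.68, the epithelial marker EPCAM lay between 16.8 and 47.6, and the blood, endothelial and liver markers PTPRC, PECAM1 and ALB were at most 9.99. Of the targeted genes, EXOSC5 was lower in EXOSC5-KO than in NONT in every replicate of both treatments. NUP93 was lower in NUP93-KO than in NONT in both untreated replicates, and its treated values overlapped those of NONT. Neither passed the limma threshold without drug (adjusted p-values of 0.151 for EXOSC5 and 0.926 for NUP93).

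The 40 genes together made up 2.68% to 2.92% of all gene values in the untreated libraries and 3.11% to 3.46% after triptolide, so their share was higher in every treated library. On the spike-in scale itself they were lower after the drug. In NONT, 40 of 40 genes fell (limma on log2(value + 1), adjusted p-value under 0.05), against 90.0% of all genes tested. In NUP93-KO 17 of 40 fell, or 42.5% against 55.1% of all genes, and in EXOSC5-KO 30 of 40 fell, or 75% against 64.3%. No member rose in any genotype, where 0.0507%, 0.138% and 0.0796% of all genes did. The treated and untreated libraries did not overlap for 40, 33 and 40 members, the treated ones always being lower, against 94.8%, 79.1% and 88.0% of all genes. The 7 members whose libraries overlapped in NUP93-KO were EEF1B2, EEF1D, EEF1G, EIF3E, EIF3H, EIF3K and PABPC1.

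The direction of these calls rests on the scale. The median log2 fold change of all genes was −1.62, −0.92 and −1.08 on the spike-in scale, and it was −0.32, −0.36 and −0.29 with every library rescaled to the same total of gene values. On this same-total scale 9 members were lower after triptolide in each genotype, against 38.2%, 39.3% and 36.8% of all genes, while 17, 19 and 17 members were higher, against 15.2%, 13.9% and 14.7%. Rescaled by median of ratios, which sets the typical gene to no change, 6, 5 and 6 members were lower, against 30.3%, 29.7% and 28.7% of all genes, and 26, 29 and 28 higher, against 27.2%, 26.7% and 26.2%. Rescaled to the same sum of mitochondrially encoded mRNAs, 39, 36 and 35 members were lower and 0 higher, against 81.2%, 76.5% and 75.1% of all genes lower. The number of calls in the knockouts also rested on single libraries. In NUP93-KO 9 members were lower without untreated replicate 2 (42.4% of all genes), 9 without triptolide replicate 1 (44.5%) and 11 without triptolide replicate 2 (47.6%). In EXOSC5-KO 16 were lower without untreated replicate 1 (50.3% of all genes), 18 without triptolide replicate 1 (52.7%) and 17 without triptolide replicate 2 (53.2%). Results are therefore given below also relative to the median gene of the same genotype, which rescaling a library moves little. On that measure the median member lay above the median gene by 0.41, 0.48 and 0.44 (log2, with 32, 33 and 33 of 40 members above it), and by 0.44, 0.49 and 0.45 on the same-total scale.

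**Figure D1:**
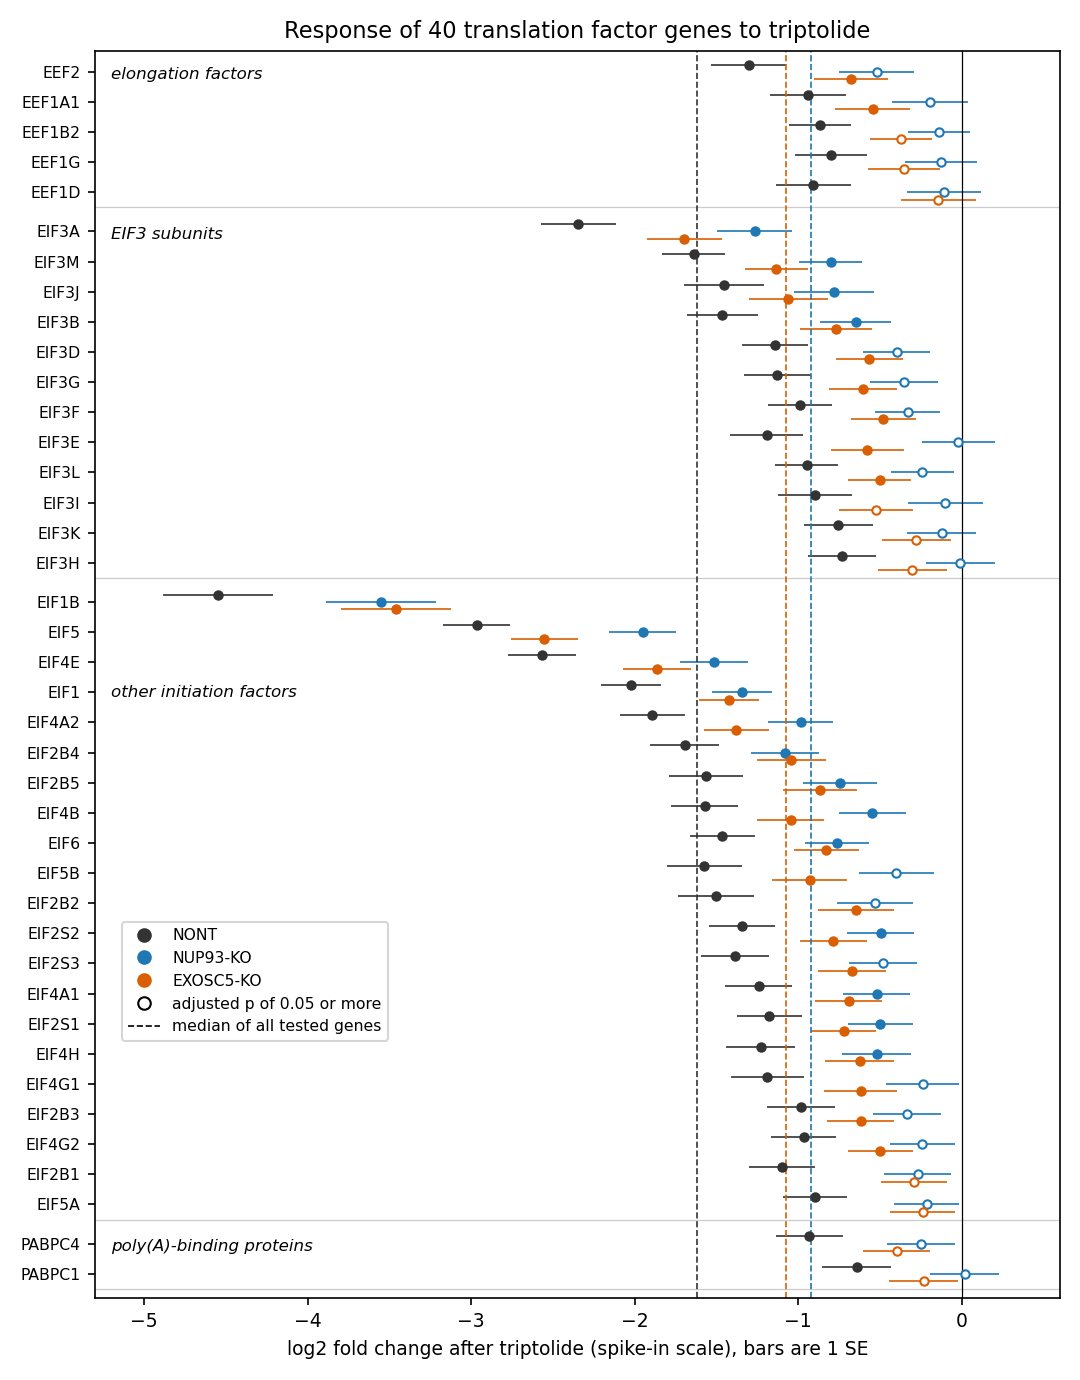
Log2 fold change after triptolide on the spike-in scale for each of the 40 genes (points, with bars of 1 SE from limma), by class and genotype. Dashed lines mark the median of all tested genes (−1.62, −0.92 and −1.08), and the elongation factors, most EIF3 subunits and both PABPC genes lie to the right of them while EIF1B, EIF5, EIF4E, EIF1 and EIF3A lie to the left; on the same-total scale 17, 19 and 17 of the 40 were higher instead.

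The elongation factors were kept better than the median gene. Ranked by log2 fold change among all tested genes, they ran from percentile 63.3 (EEF2) to 90.2 (EEF1G) in NONT. In EXOSC5-KO they ran from 67.1 (EEF2) to 94.0 (EEF1D). Their class median exceeded the median gene by 0.71, 0.78 and 0.71 (log2), and all 5 lay above the median gene in each genotype. On the spike-in scale all 5 fell in NONT and 0 passed the limma threshold in NUP93-KO. At an unadjusted p-value under 0.05, 1 (EEF2) was lower in NUP93-KO, where 8175 of 13811 genes were. In EXOSC5-KO 2, EEF1A1 and EEF2, fell. Of all genes, 90.0%, 55.1% and 64.3% fell. On the same-total scale 4, 4 and 5 of the elongation factors were higher after the drug, against 15.2%, 13.9% and 14.7% of all genes. None was lower, against 38.2%, 39.3% and 36.8%. EEF1A1 (ENSG00000156508, chr6:73489308-73525587, minus strand, GENCODE release 44 positions here and below, on GRCh38), the GTPase that brings aminoacyl-tRNA to the ribosome, had normalised values of 73203 and 99833 untreated and 47560.1 and 41705 with triptolide in NONT, 78028 and 87456 against 70192 and 74234 in NUP93-KO, then 86029.6 and 89297 against 60848 and 59381 in EXOSC5-KO. Treated values lay below untreated ones in each genotype, by the widest margin in NONT. EEF1A1 kept 51.6% (pairings 41.8% to 65.0%) of its untreated mean in NONT, 87.3% (pairings 80.3% to 95.1%) in NUP93-KO and 68.6% (pairings 66.5% to 70.7%) in EXOSC5-KO. The log2 fold changes of EEF1A1 were −0.94 ± 0.23, −0.19 ± 0.23 and −0.54 ± 0.23, with limma adjusted p-values of 0.00123, 0.499 and 0.0487. EEF1A1 alone was 0.597% to 0.854% of all gene values of a library.

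EEF2 (ENSG00000167658, chr19:3976056-3985463, minus strand), the translocase, had the lowest share kept of the elongation factors. It read 34786 and 52301 untreated and 19669 and 15209 with triptolide in NONT, 41758 and 43350.0 against 29109 and 30259 in NUP93-KO, then 43887 and 39376 against 26029.9 and 25947 in EXOSC5-KO. In no genotype did its treated and untreated libraries overlap, and it kept 40.05%, 69.8% and 62.4% of its untreated mean. The log2 fold changes of EEF2 were −1.30 ± 0.23, −0.52 ± 0.23 and −0.68 ± 0.23 (limma adjusted p-values 6.45e-05, 0.0636 and 0.0161). On the same-total scale they were 0.04, 0.05 and 0.12, close to 0.

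The 3 subunits of the exchange factor that recharges EEF1A1 kept more of their mRNA than EEF1A1 did in each genotype. EEF1G read 26919 and 39697 untreated and 20244 and 17426 with triptolide in NONT, 31908 and 35269.6 against 29283 and 32317 in NUP93-KO, then 34594 and 33374 against 26711 and 26532 in EXOSC5-KO. EEF1B2 read 2821 and 3921 untreated and 1964 and 1689 with triptolide in NONT, 3023 and 3473 against 2812 and 3092 in NUP93-KO, then 3557 and 3595 against 2833 and 2704 in EXOSC5-KO. EEF1D read 4975 and 7473 untreated and 3969 and 2662 with triptolide in NONT, 6121 and 6825 against 5282 and 6824 in NUP93-KO, then 5079 and 4768 against 4504 and 4411 in EXOSC5-KO. For each of them the NUP93-KO libraries overlapped between treatments and those of the other genotypes did not. In NONT, NUP93-KO and EXOSC5-KO, EEF1B2 kept 54.2%, 90.9% and 77.4% of its untreated mean, EEF1D 53.3%, 93.5% and 90.5% and EEF1G 56.5%, 91.7% and 78.3%. Their log2 fold changes in NONT were −0.87 ± 0.19, −0.91 ± 0.23 and −0.80 ± 0.22, each past the limma threshold, and in the knockouts they ranged from −0.37 to −0.11 and passed it for none. EEF1D was the least even of these genes, with treated NUP93-KO values of 5282 and 6824. For all 3 genes the second treated NUP93-KO replicate lay within the untreated range. The row of EEF1B2 is identical in every library to another row of the table with no symbol, so its reads may have been divided between copies and its level is uncertain.

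Both poly(A)-binding protein genes, whose products coat the poly(A) tail and contact EIF4G, were kept as well as the elongation factors. The median of the pair lay 0.83, 0.80 and 0.76 above the median gene (log2). On the spike-in scale both fell in NONT and neither passed the limma threshold in a knockout. Of all genes, 90.0%, 55.1% and 64.3% fell. At an unadjusted p-value under 0.05 neither PABPC gene passed in a knockout. There 8175 of 13811 genes were lower in NUP93-KO and 9479 in EXOSC5-KO. PABPC1 (ENSG00000070756), the main cytoplasmic form, read 28974 and 40586 untreated and 23358 and 20681 with triptolide in NONT, 31606 and 33446 against 31701 and 34271 in NUP93-KO, then 32768 and 31321 against 27705 and 26844 in EXOSC5-KO. In NUP93-KO its treated and untreated values overlapped, with the highest of the 4 a treated one. PABPC1 kept 63.3%, 101% and 85.1% of its untreated mean, and its log2 fold changes were −0.64 ± 0.21, 0.02 ± 0.21 and −0.23 ± 0.21 (limma adjusted p-values 0.00941, 0.944 and 0.332). In NONT it was the member with the smallest loss on the spike-in scale, but on the same-total scale it was higher after the drug in every genotype, by 0.70, 0.59 and 0.56. PABPC4 read 3936 and 6014 untreated and 2811 and 2313 with triptolide in NONT, 4746 and 4564 against 3574 and 4293 in NUP93-KO, then 4583 and 4305 against 3272 and 3472 in EXOSC5-KO. Treated and untreated libraries did not overlap in any genotype, and PABPC4 kept 51.5%, 84.5% and 75.9%, with log2 fold changes of −0.93, −0.25 and −0.40 of which the NONT value passed the limma threshold.

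EIF3 is the largest initiation factor complex and helps to bring the mRNA to the small ribosomal subunit. Its 12 subunit genes measured here were kept less evenly than the elongation factors. Their median exceeded the median gene by 0.49, 0.58 and 0.50 (log2), with 10, 11 and 10 of 12 subunits above it. On the spike-in scale 12 fell in NONT, 4 in NUP93-KO (EIF3A, EIF3B, EIF3J and EIF3M) and 9 in EXOSC5-KO, where EIF3H, EIF3I and EIF3K did not pass. Of all genes, 90.0%, 55.1% and 64.3% fell. On the same-total scale EIF3A and EIF3M were lower in each genotype, against 38.2%, 39.3% and 36.8% of all genes. There 7, 8 and 5 subunits were higher, against 15.2%, 13.9% and 14.7%.

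Averaged over genotypes, EIF3H and EIF3K lost least. EIF3H (ENSG00000147677) read 3746 and 5941 untreated and 3127 and 2588 with triptolide in NONT, 4686 and 5055 against 4589 and 5108 in NUP93-KO, then 5447 and 4949.8 against 4349.6 and 4084 in EXOSC5-KO. Its NUP93-KO libraries overlapped, with a treated library the highest, while the treated libraries of NONT and EXOSC5-KO lay below the untreated ones. EIF3H kept 59.0%, 99.6% and 81.1% of its untreated mean, with log2 fold changes of −0.73 ± 0.21, −0.01 ± 0.21 and −0.30 ± 0.21 and limma adjusted p-values of 0.00376, 0.977 and 0.207. EIF3K read 935 and 1419 untreated and 760.3 and 612 with triptolide in NONT, 1143 and 1299 against 1051 and 1193 in NUP93-KO, then 1288 and 1240.0 against 1084 and 1004 in EXOSC5-KO. It kept 58.3%, 91.9% and 82.6% at log2 fold changes of −0.76, −0.12 and −0.28, and its row too is identical to another row with no symbol. EIF3E kept 42.4%, 98.3% and 67.1%, with the widest gap of the 12 between NONT and NUP93-KO.

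EIF3A (ENSG00000107581, chr10:119033670-119080817, minus strand), the scaffold of the complex, lost most. It read 6922 and 11089 untreated and 2099.6 and 1417 with triptolide in NONT, 7039 and 8597 against 3121 and 3353 in NUP93-KO, then 9727 and 9199.5 against 2914 and 2921 in EXOSC5-KO. All treated libraries were far below all untreated ones, and EIF3A kept 19.5%, 41.4% and 30.8% of its untreated mean. The log2 fold changes were −2.34 ± 0.23, −1.27 ± 0.23 and −1.70 ± 0.23, with limma adjusted p-values of 1.09e-07, 0.000176 and 7.93e-06. EIF3M came next, at 2748 and 3802 untreated and 1095 and 981 with triptolide in NONT, 2739 and 3369 against 1715 and 1769 in NUP93-KO, then 3283 and 3119.7 against 1449 and 1469 in EXOSC5-KO. It kept 31.7%, 57.1% and 45.6%, with log2 fold changes of −1.64, −0.80 and −1.13, all past the threshold. EIF3A and EIF3M belong to the same structural core of EIF3 as EIF3H and EIF3K, so the lowest and the highest members of the class encode parts of 1 structure. The subunits in between were EIF3J, a loosely held subunit, at −1.45, −0.78 and −1.06, EIF3B at −1.46, −0.65 and −0.77, EIF3D, which can bind the cap, at −1.14, −0.40 and −0.56, EIF3G at −1.13, −0.35 and −0.60, EIF3F at −0.99, −0.33 and −0.48, EIF3L at −0.95, −0.24 and −0.50 and EIF3I at −0.90, −0.10 and −0.52 (log2 fold change in NONT, NUP93-KO and EXOSC5-KO).

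**Figure D2:**
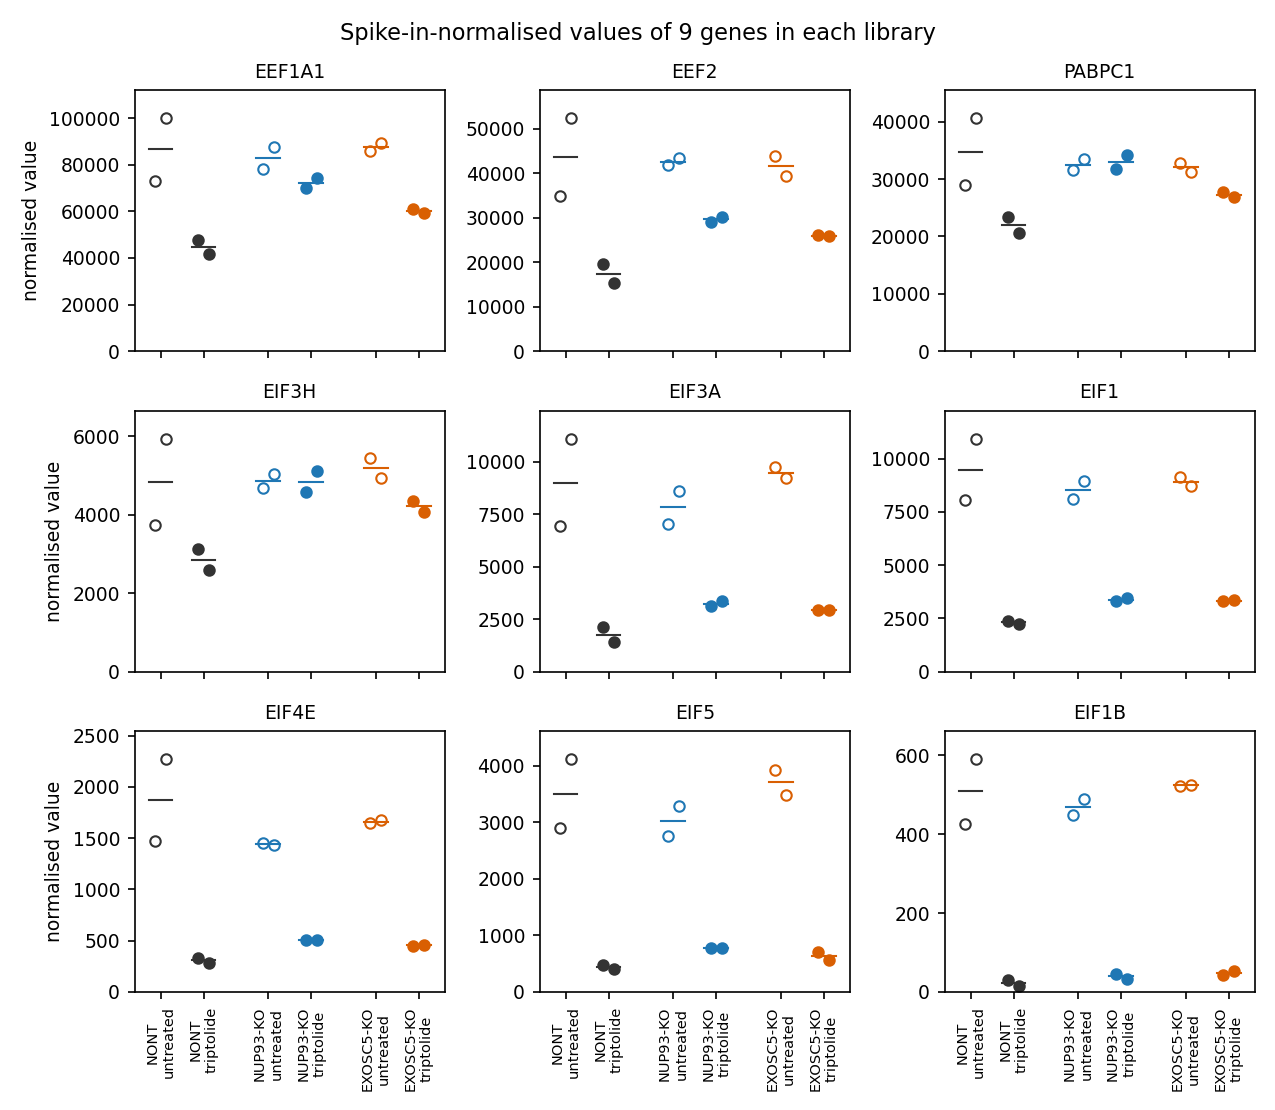
Spike-in-normalised values (linear axes from 0) of 9 genes in each library, open points for untreated and filled points for triptolide, with lines at the mean of the 2 replicates. EEF1A1, EEF2, PABPC1 and EIF3H kept at least 40.05% of their untreated mean in each genotype (on the same-total scale they were level or higher after the drug) and PABPC1 and EIF3H overlapped in NUP93-KO, while EIF3A, EIF1, EIF4E, EIF5 and EIF1B were far below their untreated values in every treated library.

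The other 21 initiation factors spread most widely. Their median exceeded the median gene by 0.16, 0.40 and 0.29 (log2), with 15, 15 and 16 of 21 above it. On the spike-in scale 21, 13 and 19 fell, against 90.0%, 55.1% and 64.3% of all genes. On the same-total scale 7 were lower in each genotype, against 38.2%, 39.3% and 36.8% of all genes. There 4, 5 and 5 were higher, against 15.2%, 13.9% and 14.7%. Their log2 fold changes on the spike-in scale ranged from −4.55 to −0.90 for NONT, from −3.55 to −0.21 for NUP93-KO, and for EXOSC5-KO from −3.46 to −0.24.

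Of the factors of start codon recognition and subunit joining, EIF1B, EIF5 and EIF1 lay below the median gene in each genotype and EIF5B above it. EIF1B (ENSG00000114784, chr3:40309707-40312424, plus strand), a close relative of EIF1, was the lowest member in each genotype. It read 426 and 590.1 untreated and 29.4 and 14.1 with triptolide in NONT, 449 and 489.6 against 45.3 and 33.6 in NUP93-KO, then 523 and 526 against 42.2 and 51.9 in EXOSC5-KO. Every treated value was far below every untreated one, and the lowest rests on about 28.8 reads. EIF1B kept 4.29%, 8.41% and 8.97% of its untreated mean, with log2 fold changes of −4.55 ± 0.34, −3.55 ± 0.34 and −3.46 ± 0.34 and limma adjusted p-values of 4.47e-09, 1.94e-07 and 2.21e-07. EIF5 (ENSG00000100664, chr14:103333544-103345025, plus strand), which makes EIF2 hydrolyse its GTP at the start codon, read 2893 and 4117 untreated and 475 and 409.7 with triptolide in NONT, 2754 and 3293 against 779 and 778 in NUP93-KO, then 3924 and 3488 against 704 and 563 in EXOSC5-KO. Treated and untreated values were again far apart, and EIF5 kept 12.6%, 25.8% and 17.1%, with log2 fold changes of −2.97 ± 0.21, −1.95 ± 0.21 and −2.55 ± 0.21 (limma adjusted p-values 2.14e-09, 5.84e-07 and 2.89e-08). EIF1 (ENSG00000173812, chr17:41688885-41692668, plus strand), the fidelity factor itself, read 8048 and 10934 untreated and 2383 and 2231 with triptolide in NONT, 8127 and 8966 against 3292 and 3445 in NUP93-KO, then 9153 and 8694 against 3306 and 3345 in EXOSC5-KO. Its treated libraries also lay well below its untreated ones. EIF1 kept 24.3%, 39.4% and 37.3% at log2 fold changes of −2.02 ± 0.18, −1.34 ± 0.18 and −1.42 ± 0.18 (limma adjusted p-values 4.15e-08, 9.49e-06 and 4.5e-06). EIF1, EIF1B and EIF5 were lower after triptolide on the same-total scale too, with log2 fold changes of −0.68, −0.77 and −0.63 for EIF1, −3.25, −2.99 and −2.67 for EIF1B and −1.63, −1.38 and −1.76 for EIF5. EIF5B, the GTPase that joins the ribosomal subunits, kept 32.8%, 74.5% and 52.5%, more than the other 3.

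Among the EIF4 factors the cap-binding protein itself kept least. EIF4E (ENSG00000151247, chr4:98879276-98929133, minus strand) read 1469 and 2270.1 untreated and 333 and 285 with triptolide in NONT, 1452 and 1434 against 505 and 504 in NUP93-KO, then 1649 and 1674 against 452 and 459 in EXOSC5-KO. All treated values lay far below the untreated ones. EIF4E kept 16.5%, 35.0% and 27.4% of its untreated mean, and its log2 fold changes of −2.56 ± 0.21, −1.51 ± 0.21 and −1.86 ± 0.21 passed the limma threshold in each genotype on the spike-in scale and on the same-total scale, where they were −1.23, −0.95 and −1.07. Its partners lost less. EIF4G1, the scaffold, kept 43.3%, 84.9% and 65.0%, and EIF4G2, a related scaffold that does not bind EIF4E, kept 50.7%, 84.7% and 70.9%. EIF4H, which stimulates the EIF4A helicase, kept 42.3%, 69.7% and 64.7%, and EIF4B, with the same role, kept 33.2%, 68.3% and 48.4%. EIF4B kept less than EIF4H in each genotype, by little in NUP93-KO.

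The subunits of EIF2, which carries the initiator tRNA, stayed close to each other. In NONT, NUP93-KO and EXOSC5-KO, EIF2S1 kept 43.7%, 70.4% and 60.7%, EIF2S2 38.8%, 70.5% and 58.0% and EIF2S3 37.5%, 71.8% and 62.5%. All 3 fell in NONT and EXOSC5-KO and EIF2S1 and EIF2S2 in NUP93-KO. The 5 subunits of EIF2B, the exchange factor that reloads EIF2, were more spread. EIF2B1, a regulatory subunit, read 1149.5 and 1452 untreated and 718 and 507 with triptolide in NONT, 1106 and 1114 against 869.7 and 976 in NUP93-KO, then 1079 and 1081 against 930.1 and 836 in EXOSC5-KO. It kept 47.1%, 83.1% and 81.8%. Treated values of EIF2B1 lay below untreated ones in each genotype, and its log2 fold changes were −1.10 ± 0.20, −0.27 ± 0.20 and −0.29 ± 0.20 (limma adjusted p-values 0.000109, 0.280 and 0.209). EIF2B4 lost most of the 5 and kept 30.3%, 47.2% and 48.5%, EIF2B5, the catalytic subunit, kept 33.3%, 59.6% and 54.8%, EIF2B2 kept 34.0%, 69.2% and 63.7% and EIF2B3 kept 49.7%, 79.3% and 65.2%. EIF2B4 was lower in each genotype on the same-total scale as well, at −0.36, −0.51 and −0.25 (log2).

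EIF5A (ENSG00000132507, chr17:7306999-7312463, plus strand), which eases ribosomes through difficult sequences and acts in elongation as much as in initiation, was the best kept of the 21. It read 5310.2 and 7352 untreated and 3851 and 2930.2 with triptolide in NONT, 5738 and 6077 against 4887 and 5297 in NUP93-KO, then 5589.6 and 5175 against 4571 and 4545 in EXOSC5-KO. Its treated libraries lay below the untreated ones in each genotype, and it kept 53.6%, 86.2% and 84.7%, near the values of EEF1B2 and EEF1D. The log2 fold changes of EIF5A were −0.90 ± 0.20, −0.21 ± 0.20 and −0.24 ± 0.20 (limma adjusted p-values 0.000492, 0.375 and 0.284), and its row is identical to another row that has no symbol. EIF6, which keeps the ribosomal subunits apart, kept 35.5%, 59.0% and 56.4%.

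The classes were compared within each library, where rescaling the library hardly moves the difference. The median response of the elongation factors exceeded that of the other initiation factors by 0.56, 0.38 and 0.42 (log2). Over the 4 pairs of 1 treated and 1 untreated library this was 0.43 to 0.69, 0.34 to 0.44 and 0.38 to 0.44. The EIF3 subunits exceeded the other initiation factors by 0.33, 0.18 and 0.21, with pairs from 0.31 to 0.38, 0.19 to 0.26 and 0.18 to 0.22. A class difference was taken from each gene's mean over libraries, so it can fall just outside the range of the single pairs, as for EIF3 in NUP93-KO. All 12 pairs were above 0 for both comparisons. Because the members were chosen with results of these data known, no p-value is attached. The classes overlapped gene by gene, with EIF3A and EIF3M below most of the other initiation factors and EIF5A and EIF2B1 among the elongation factors.

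**Figure D3:**
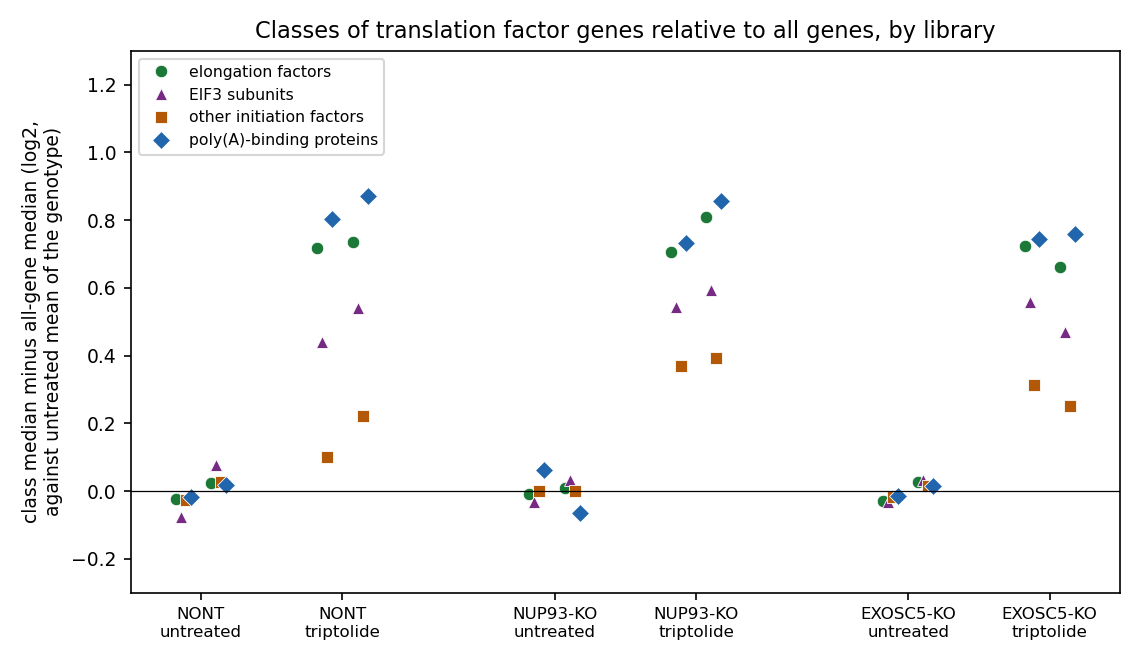
Median log2 value of each class against the untreated mean of its genotype, minus the same median over all tested genes, in each of the 12 libraries. The 2 untreated points of a class mirror each other around 0 by construction, and lie at most 0.0769 from it. The 4 classes separate in every treated library, where the poly(A)-binding proteins and elongation factors lie highest, the EIF3 subunits next and the other initiation factors lowest.

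Wider lists gave the setting for these values. Their counts stand beside 90.0%, 55.1% and 64.3% of all genes that fell on the spike-in scale. On the same-total scale 15.2%, 13.9% and 14.7% of all genes were higher. The 79 ribosomal protein genes, the best known TOP mRNAs, had a median 0.86, 0.83 and 0.81 above the median gene, and 78, 1 and 3 of them fell on the spike-in scale (77 of 79 were higher in each genotype on the same-total scale). The 6 further TOP mRNAs that are not ribosomal proteins, among them TPT1 and RACK1, lay 0.64, 0.60 and 0.51 above it, and 6, 0 and 4 of them fell. The 11 members long known as TOP mRNAs lay 0.68, 0.78 and 0.60 above the median gene and the other 29 members 0.28, 0.42 and 0.38. EIF3A was the only gene of the 11 below the median gene, at −2.34, −1.27 and −1.70. EIF4B, also among the 11, lay only 0.05 and 0.03 above the median gene in NONT and EXOSC5-KO. In these 2 genotypes it was lower after the drug on the same-total scale (−0.23 and −0.25). In 30 further genes of cytosolic translation the median was 0.32, 0.35 and 0.31 above the median gene, and 29, 15 and 23 fell. Some of these lost far more than most members: the log2 fold changes of PDCD4, an inhibitor of EIF4A, were −2.39, −1.82 and −1.67, those of LARP1, which binds TOP mRNAs, −2.09, −1.26 and −1.36, and those of the release factor gene GSPT2 −6.32, −4.66 and −4.56, while GSPT1, its main relative, had −1.29, −0.51 and −0.93. EIF2D, which can replace EIF2 on some mRNAs, was among the best kept at −0.83, −0.15 and −0.30. The 9 mitochondrial translation factors lay 0.14, 0.03 and 0.26 above the median gene, and TUFM, the mitochondrial counterpart of EEF1A1, was the best kept of them at −0.90, −0.19 and −0.32. These genes were named after their values were seen.

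The 5′ ends of the members were read to see which carry the pyrimidine tract that defines a TOP mRNA. RefSeq starts on GRCh38.p14 were matched for 31 of the 40 genes and not for EEF1D, EIF3A, EIF3E, EIF3G, EIF3H, EIF3L, EIF2S2, PABPC1 and PABPC4. The rule for a tract was set after the sequences had been seen. A tract was taken as a C at the annotated start followed by at least 4 bases that are each C or T. It was read on the sense strand and at the start only. It was found at a start of 10 of the 31 members, or 32.3%, against 774 of 10497 tested genes with a matched start, or 7.37%, and 4.07% of all starts in the table. By class it was found for 3 of 4 elongation factors, 4 of 7 EIF3 subunits and 3 of 20 other initiation factors. The 10 sequences are printed because they show the feature that was read, each from 5 bases before the start to 20 from the start on, 5′ to 3′, with the tract in capitals.
EEF1A1 (chr6:73521013-73521037, minus strand): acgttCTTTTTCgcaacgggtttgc
EEF1B2 (chr2:206159890-206159914, plus strand): cgggtCCTTTTTCCTCTCTTCagcg
EEF2 (chr19:3985444-3985468, minus strand): gcgttCTCTTCCgccgtcgtcgccg
EIF3D (chr22:36529147-36529171, minus strand): gtttcCTCTTTTCCTggtttctcaa
EIF3F (chr11:7987332-7987356, plus strand): gcctcCTTCTTTCTCgacaagatgg
EIF3K (chr19:38619183-38619207, plus strand): accacCTCTTCCTgttcccgtcctt
EIF3M (chr11:32583826-32583850, plus strand): gttccCTTTTCCggtcggcgtggtc
EIF2S3 (chrX:24054951-24054975, plus strand): ccttcCTCTTTTggcaacatggcgg
EIF4A2 (chr3:186783572-186783596, plus strand): gctgtCTTTTCagtcgggcgctgag
EIF4B (chr12:53006451-53006475, plus strand): cgggtCTTTTgcgttctctttccct

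Members without a tract at the annotated start included EEF1G, whose first base is an A that a short pyrimidine stretch follows, and 4 of the members with the largest losses, EIF1, EIF1B, EIF5 and EIF4E. These are shown for contrast, with no capitals because no tract was found (for EIF5 the first of the annotated starts is given).
EEF1G (chr11:62573872-62573896, minus strand): ggcttactttgcggcagcgccgaga
EIF1 (chr17:41688880-41688904, plus strand): cctctgccccagtcactgagccgcc
EIF1B (chr3:40309702-40309726, plus strand): tgtgcgagaagccgcagcgccgcct
EIF5 (chr14:103334232-103334256, plus strand): tgttcagtcagagcgagaacattcc
EIF4E (chr4:98929114-98929138, minus strand): cggttgtgcgatcagatcgatctaa

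Members with and without a tract overlapped in their response. The median log2 fold change on the spike-in scale was −1.22, −0.44 and −0.62 for the 10 members with a tract and −1.45, −0.52 and −0.72 for the 21 without. Over all tested genes with a matched start it was −1.45, −0.76 and −0.90 with a tract and −1.66, −0.96 and −1.12 without. Within the classes, members with a tract were better kept only for EIF3, at −1.06, −0.36 and −0.52 (4 genes) against −1.45, −0.65 and −0.77 (3). For elongation factors it was −0.94, −0.19 and −0.54 (3 genes) against −0.80, −0.12 and −0.35 (1). For other initiation factors it was −1.57, −0.55 and −1.05 (3 genes) against −1.46, −0.52 and −0.72 (17). The member with the longest tract, EEF1B2, was well kept, but EIF3M and EIF4A2 carry a tract and were among the lower members, and EEF1G and EIF5A have none at the annotated start and were among the best kept. An annotated start can differ from the one used in U2OS cells by a few bases, and then a tract is missed. In the 3′ UTR, the pentamer ATTTA, known from unstable mRNAs, was counted on the sense strand of the GENCODE release 44 canonical transcript, overlaps included. At least 1 copy was found in 72.5% of members and in 74.0% of 12989 tested genes. Across the 40 members its number correlated with the response at Spearman's rho of −0.36, −0.40 and −0.39, and across the tested genes at −0.12, −0.13 and −0.17. The length of the 3′ UTR gave rho of −0.35, −0.29 and −0.34 across the members. Across the tested genes it gave −0.17, −0.17 and −0.19. The GC content of the transcript gave rho of 0.32, 0.21 and 0.37 across the members and 0.01, 0.03 and 0.10 across the tested genes. Whether the pentamer goes with the response apart from this length or the GC content was not tested. These are descriptions across genes that share libraries, with no p-value. EIF3A carries 9 copies, EIF3M and EIF3J 8 each and EIF1 6, but EIF2S1, with 11, was not among the low members and EIF1B, the lowest of all, carries 2.

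Some members are encoded by pairs of related genes, and the ratio within a pair is free of the scale of a library. EIF1 to EIF1B was the ratio that moved most. Without drug it was 18.8 and 18.5 in the NONT libraries, 18.1 and 18.3 in those of NUP93-KO and 17.5 and 16.5 in those of EXOSC5-KO. After triptolide it was 78.3 and 147.6, 71.2 and 99.5, then 76.6 and 63.3, in the same order. The untreated ratios were nearly the same in 3 genotypes and all 6 treated ratios lay above all 6 untreated ones. EIF1 was the better kept gene although it lost most of its mRNA in each genotype, and without drug it was also the more abundant per transcript length, at 4059 per kilobase in NONT against 515.0 for EIF1B.

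EIF4A1 and EIF4A2 encode near-identical helicases that drive mRNA unwinding. EIF4A1 read 12069 and 18188 untreated and 6639 and 5916 with triptolide in NONT, 13104 and 14009 against 9112 and 9796 in NUP93-KO, then 15868 and 14943 against 9752 and 9323 in EXOSC5-KO, and EIF4A2 read 1375 and 1822 untreated and 459 and 396 with triptolide in NONT, 1216 and 1515 against 670.1 and 700.4 in NUP93-KO, then 1311 and 1252 against 493 and 491 in EXOSC5-KO. The ratio of EIF4A1 to EIF4A2 without drug was 8.77 and 9.98 in NONT, 10.8 and 9.24 in NUP93-KO, then 12.1 and 11.9 in EXOSC5-KO. With triptolide it was 14.4 and 14.9, 13.6 and 13.97, then 19.7 and 19.0. In each genotype both treated ratios exceeded both untreated ones. EIF4A2 had log2 fold changes of −1.89 ± 0.20, −0.99 ± 0.20 and −1.38 ± 0.20 (limma adjusted p-values 2.37e-07, 0.000442 and 1.45e-05) and EIF4A1 of −1.24 ± 0.20, −0.52 ± 0.20 and −0.69 ± 0.20 (3.35e-05, 0.0390 and 0.00721). PABPC1 to PABPC4 moved least. Its ratio without drug was 7.36 and 6.75 in NONT, 6.66 and 7.33 in NUP93-KO, then 7.15 and 7.27 in EXOSC5-KO, against 8.31 and 8.94, 8.87 and 7.98, then 8.46 and 7.73 with triptolide.

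Averaged over genotypes, the log2 ratio rose by 2.26 for EIF1 to EIF1B, by 0.60 for EIF4A1 to EIF4A2 and by 0.24 for PABPC1 to PABPC4. An exact two-sided permutation test with treatment labels exchanged within genotype gave p = 0.00926 for each pair, the smallest value its arrangements can give, and 0.00926 after Benjamini-Hochberg adjustment over the 3 pairs. Pairs of unrelated genes were not tested, so this p-value does not set the 3 pairs apart from others. The pairs were chosen with results of these data known. The rise was present in 3 of 3 genotypes for each pair. By genotype the change was 2.53, 2.21 and 2.04 for the first pair, 0.65, 0.47 and 0.69 for the second and 0.29, 0.27 and 0.17 for the third (NONT, NUP93-KO and EXOSC5-KO). Whether the change differed between genotypes was not tested. Reads from near-identical stretches may be shared between the genes of a pair.

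**Figure D4:**
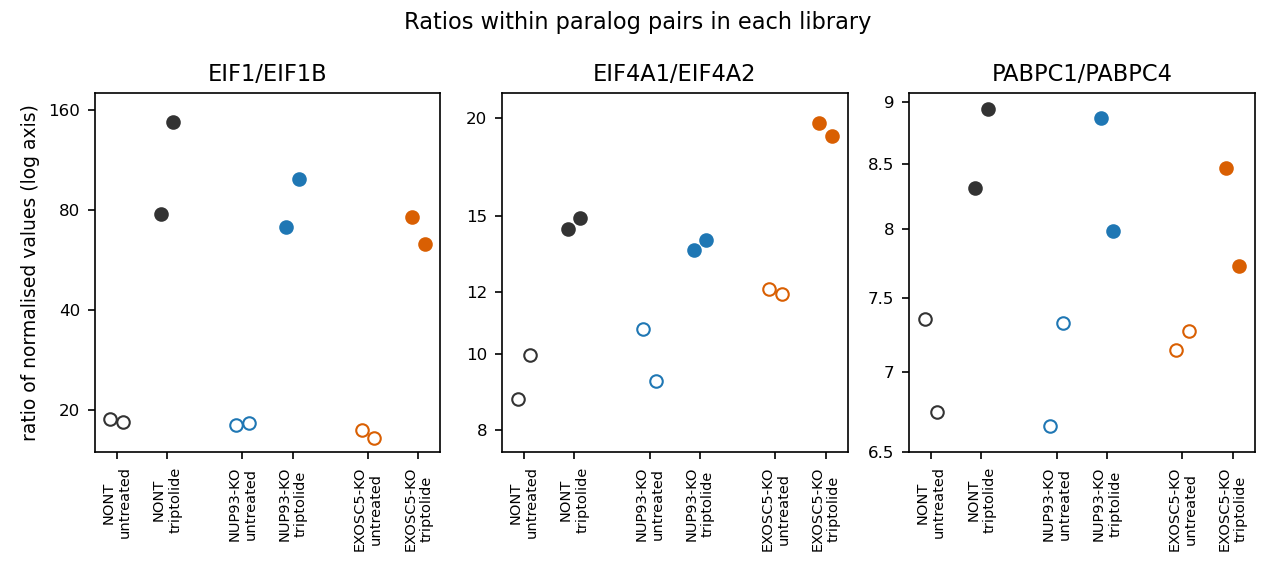
Ratio of the normalised values within 3 pairs of related genes in each library (log axes that differ between panels), open points for untreated and filled points for triptolide. Treated ratios lie above untreated ones in each genotype, from at most 18.8 to at least 63.3 for EIF1 to EIF1B and by far less for the other pairs.

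Without drug, no member passed the test in either knockout on the spike-in scale. For NUP93-KO against NONT 0 of 40 genes passed the limma threshold, where 0.00724% of all genes were lower and 0.0145% higher. At an unadjusted p-value under 0.05 it was 0 also, where 338 of 13811 genes were lower and 242 higher. The log2 differences ranged from −0.34 for EIF4E to 0.08 for EIF2B3, with a median of −0.07 beside −0.09 for all genes. For EXOSC5-KO 0 of 40 passed, where 0.0362% of all genes were lower and 0.485% higher. At an unadjusted p-value under 0.05 it was 0 as well, where 340 of 13811 genes were lower and 833 higher. The members' differences ranged from −0.31 for EEF1D to 0.33 for EIF2B2 with a median of −0.01. On the same-total scale, EIF4B and EIF5A were lower in EXOSC5-KO than in NONT, with log2 differences of −0.19 (limma adjusted p = 0.0239, 0.0057 to 1 over the alternatives) and −0.24 (0.0222, 0.00516 to 1), where 2.09% of all genes were lower and 2.79% higher. EIF5A read 5589.6 and 5175 in untreated EXOSC5-KO, inside or below the range of NONT, and EIF4B read 10039 and 9422, inside it. By median of ratios 7 members were lower in EXOSC5-KO, against 3.64% of all genes, and on the mitochondrial scale 6, against 5.21%. No member was higher in either knockout on these scales, and none was lower in NUP93-KO, where on the same-total scale 0.355% of all genes were lower and 0.615% higher.

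After triptolide the mRNAs of all 40 genes were lost most in NONT, and 38 were lost least in NUP93-KO, on the spike-in scale. The medians of all genes followed the same order, at −1.62, −0.92 and −1.08. The share of all genes with this order was not counted, so the order does not set the members apart. The response of NUP93-KO minus that of NONT ranged from 0.62 to 1.17 on the log2 scale with a median of 0.76, beside 0.74 for all genes, and 0 of 40 members passed the limma threshold, where 0.76% of all genes passed as higher and 0.0145% as lower. At an unadjusted p-value under 0.05 it was 37 of 40, where 5709 of 13811 genes were higher and 39 lower. EIF5B and EIF3E had the largest differences, at 1.17 ± 0.33 and 1.17 ± 0.32 (limma adjusted p = 0.0595, 0.00343 to 0.935 over the alternatives, and 0.0586, 0.00343 to 0.909). EIF5B read 2991 and 4815 untreated and 1410.2 and 1151 with triptolide in NONT, 2999.7 and 4399.9 against 2688 and 2822 in NUP93-KO, then 4736 and 4269.7 against 2439 and 2289 in EXOSC5-KO, and the gap between treated and untreated values was smallest in NUP93-KO. EIF3E read 1843 and 3147 untreated and 1156 and 961 with triptolide in NONT, 2054 and 2405 against 2158 and 2224 in NUP93-KO, then 2284 and 2072 against 1577 and 1347 in EXOSC5-KO. Its treatments overlapped in NUP93-KO only, whereas those of EIF5B overlapped in no genotype. EIF4B differed by 1.02 ± 0.29 (limma adjusted p = 0.0606).

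For EXOSC5-KO against NONT the differences in response ranged from 0.36 to 1.09 with a median of 0.55, beside 0.57 for all genes. Of the members 0 of 40 passed, where 0.319% of all genes passed as higher and 0.0145% as lower. At an unadjusted p-value under 0.05 it was 12, where 3187 of 13811 genes were higher and 56 lower. The largest difference, for EIF1B, was 1.09 ± 0.48 (limma adjusted p = 0.202). Between the knockouts 0 of 40 passed, where 0.0145% of all genes passed as lower and 0.00724% as higher. At an unadjusted p-value under 0.05 it was 0 too, where 427 of 13811 genes were lower and 170 higher. The differences of EXOSC5-KO minus NUP93-KO ran from −0.60 for EIF5 to 0.09 for EIF1B. Both comparisons with NONT share the NONT libraries and rest on them. Without the first untreated NONT replicate 39 of 40 members passed as higher in each comparison, against 51.0% of all genes for NUP93-KO and 38.2% for EXOSC5-KO, and without the first triptolide NONT replicate 13 passed for NUP93-KO, against 18.0%. On the same-total scale 0 passed for NUP93-KO, EXOSC5-KO or their difference, where 0.0145%, 0.0652% and 0.0434% of all genes passed as higher and 0.0%, 0.0% and 0.0145% as lower. By median of ratios and on the mitochondrial scale 0 passed as well, and the members' median difference with the same total was −0.01 in NUP93-KO, with 0.01 in EXOSC5-KO. The members' loss in the knockouts thus differed from that in NONT by about as much as the loss of all genes did, and a difference particular to them was not detectable with 2 replicates.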

How the data were processed

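The values are signal values that the authors deposited as 1 table: reads were quantified per transcript with kallisto 0.46.1, summed to genes with tximport and divided by DESeq2 size factors estimated from the ERCC spike-ins alone, which were added according to the counted number of cells. Of 22471 rows 92 were spike-ins and 22379 genes. Values were used as deposited, since low values were whole multiples of 1 read (within 0.05) in only 25.3% to 31.7% of cases and read counts could not be recovered, so no count test was run.

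Genes with an untreated mean of at least 10 were tested with limma 3.58.1 (R 4.3.3) on log2(value + 1), a scale that understates changes of low genes, with a mean for each of 6 groups, a trended prior and Benjamini-Hochberg adjustment over 13811 genes at a threshold of 0.05. The test was checked on simulated data with independent noise for each gene. The simulation held no scale shift shared by all genes of a library, as between the untreated NONT replicates. It therefore does not cover such shifts. Paralog ratios were tested by exact permutation in Python 3.11.15 with SciPy 1.17.1. Start windows came from RefSeq promoters (GRCh38.p14) and gene positions and transcripts from GENCODE release 44. The tract rule was set after the sequences had been seen.

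The members, lists and tests were chosen with earlier results of these data known. Full values are given for the elongation factors, the PABPC genes, the paralog pairs and the 2 highest and 2 lowest members of the other classes. EIF4E, EIF5B and EIF3E were added after their values were seen. The alternatives were other pseudocounts, filters and scalings, no trend, a replicate block and leaving out each library.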

Additional observations from a re-analysis of the deposited data

How the results depend on the processing

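The scale decided the most. The number of members lower after triptolide was 40, 17 and 30 (NONT, NUP93-KO, EXOSC5-KO), against 90.0%, 55.1% and 64.3% of all genes. It became 9, 9 and 9 on the same-total scale (38.2%, 39.3% and 36.8% of all genes) and 6, 5 and 6 by median of ratios (30.3%, 29.7% and 28.7%). In NUP93-KO the mitochondrial scale gave 36 (76.5% of all genes) and a fit without the trend 11 (52.4%). Without drug, 2, 7 and 6 members were lower in EXOSC5-KO on these 3 scales (2.09%, 3.64% and 5.21% of all genes), against 0 on the spike-in scale (0.0362%). With an untreated mean of at least 50 required, 6 members passed the difference in response of NUP93-KO and NONT (9.01% of 11667 genes), against 0. The member median minus the median gene was 0.29, 0.42 and 0.38 with a pseudocount of 5 and 0.11, 0.26 and 0.21 with no filter, by which many genes near 0 entered.

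Replicate numbers did not pair the samples: the correlations of same-numbered deviations over the 15 pairs of groups lay between −0.05 and 0.04. With a replicate block 40, 13 and 27 members were lower, against 89.8%, 53.8% and 62.8% of all genes. In the other comparisons 0 members passed, where at most 0.463% of all genes passed as higher. Leaving out each library in turn gave 39 to 40, 9 to 24 and 16 to 35 members lower. Of all genes 79.4% to 90.2%, 42.4% to 60.3% and 50.3% to 71.2% were lower. It gave 0 to 39 members in each difference from NONT, where 0.0% to 51.0% (NUP93-KO) and 0.0% to 38.2% (EXOSC5-KO) of all genes were higher. It also gave 0.36 to 0.44, 0.43 to 0.54 and 0.41 to 0.45 for the member median minus the median gene. For elongation against other initiation factors in EXOSC5-KO it gave 0.39 to 0.44, and for EIF3 0.18 to 0.25 (NUP93-KO) and 0.20 to 0.25 (EXOSC5-KO). It turned the sign of EEF1D in NUP93-KO (−0.29 to 0.0783), of EIF3H (−0.0848 to 0.0699) and PABPC1 (−0.0365 to 0.076) there, and of EIF4B (−0.44 to 0.11) and EIF5A (−0.45 to 0.0184) in untreated EXOSC5-KO against NONT.

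Single genes lower on the spike-in scale turned higher on the same-total scale, in the order of genotypes above: EEF1A1 by 0.40, 0.37 and 0.25, EEF1B2 by 0.47, 0.43 and 0.42, EEF1D by 0.43, 0.46 and 0.65, EEF1G by 0.54, 0.44 and 0.44, EEF2 by 0.037, 0.0489 and 0.12, EIF3H by 0.61, 0.56 and 0.49, EIF3K by 0.58, 0.45 and 0.52, EIF5A by 0.44, 0.35 and 0.55, EIF2B1 by 0.24, 0.30 and 0.50, EIF4A1 by 0.10, 0.0485 and 0.10 and PABPC4 by 0.41, 0.32 and 0.40, with PABPC1 at 0.70 in NONT and 0.56 in EXOSC5-KO. By median of ratios these were 0.71, 0.71 and 0.54 for EEF1A1, 0.78, 0.77 and 0.71 for EEF1B2, 0.74, 0.80 and 0.94 for EEF1D, 0.85, 0.78 and 0.73 for EEF1G, 0.35, 0.38 and 0.40 for EEF2, 0.92, 0.90 and 0.78 for EIF3H, 0.90, 0.78 and 0.80 for EIF3K, 0.76, 0.69 and 0.84 for EIF5A, 0.55, 0.63 and 0.79 for EIF2B1, 0.41, 0.38 and 0.39 for EIF4A1 and 0.72, 0.66 and 0.68 for PABPC4, with PABPC1 at 1.01 in NONT and 0.85 in EXOSC5-KO and EIF3M at 0.0117 in NONT and 0.10 in NUP93-KO. On the mitochondrial scale PABPC1 in NUP93-KO was −0.28 against 0.02. The paralog ratios depend on the scale only through the 1 added to each value. EIF1B, with few reads after triptolide, has the largest standard error of the members.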
